A study of Mus musculus with 2 samples.

Results

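Tissue kallikreins are secreted serine proteases of the trypsin family. Klk1 cuts kininogens to release kinins, small peptides that widen blood vessels and act through the B1 and B2 bradykinin receptors, and it is known as the kallikrein of pancreas, kidney and salivary gland. In the mouse the Klk1 gene has been copied many times next to itself, and the copies, named Klk1b, are best known from the submandibular gland, where some of their products bind or process growth factors such as epidermal growth factor (EGF).

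The 5 genes described here are Klk1, Klk1b4, Klk1b5, Klk1b8 and Klk1b24, out of 26 tissue kallikrein genes and 32285 genes in the count tables. They were chosen from values measured in these same cells, so their levels, their differences between libraries and their expression together are given as a description, with no test. Single-cell RNA sequencing was performed on pancreatic tumours of 6-week-old mice, with 1 library per group. The EL1 library came from FVB/N mice of the EL1-Luc/EL1-TAg line, which carry luciferase and the SV40 T antigen under the elastase I promoter, a promoter of acinar cells. The WTg library came from EL1 mice crossed with CAG-Mettl3 mice, a line made in C57BL/6 that expresses the RNA methyltransferase Mettl3 from the ubiquitous CAG promoter. T antigen and luciferase were therefore shared by both groups, whereas the Mettl3 transgene, the strain background and the animals differed together and cannot be told apart. The sources used here do not say how many mice went into a library.

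After removal of barcodes with few genes, few unique molecular identifiers (UMIs) or many mitochondrial UMIs, 1113 of 1621 EL1 barcodes and 905 of 1488 WTg barcodes remained, with medians of 26543 and 34836 UMIs per cell. No kept barcode was found in both libraries. Mettl3 itself was counted at 575 UMIs (15.1 CPM, counts per 1000000 UMIs of the library) in EL1 and 2201 UMIs (66.7 CPM) in WTg, the direction given by the labels. All intervals below are 95% and cover counting error only, because no group had a replicate.

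All 5 genes lie on the plus strand of mouse chromosome 7 (GRCm38, GENCODE M21 annotation), within a stretch of 37 Klk genes, 11 of them pseudogenes. Klk1b8 stands apart at chr7:43950664-43954941. Klk1b24 (chr7:44188236-44192455), Klk1b4 (chr7:44207435-44211754), Klk1b5 (chr7:44215945-44220703) and Klk1 (chr7:44225360-44229618) lie in this order toward the far end of the stretch. Each has 5 coding exons. The coding sequence of Klk1b5 was 95.1% identical to that of Klk1, and the values for Klk1b4, Klk1b24 and Klk1b8 were 88.6%, 84.8% and 82.5%. Despite this likeness, none of the 311 windows of 90 bases in the last 400 bases of the Klk1, Klk1b4, Klk1b5 and Klk1b8 transcripts occurred in a transcript of another gene. For Klk1b24, 9 of the 311 windows (2.89%) also occurred in Klk1b21, so reads there could belong to either gene. The search was for exact matches among reference transcripts. Differences between strains in sequence or copy number, which could shift reads between these genes, were not examined. The antisense genes Gm10109 and Gm44756 overlap 2062 bases of Klk1 and all 4278 bases of Klk1b8. Of these antisense genes, only Gm44756 is among the genes counted. Whether strand was used in counting is not given in the sources used here.

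The promoters are shown because the 5 genes were counted in the same cells. RefSeq promoter windows (GRCm38.p6, 250 bases before to 50 after each start) were found for all 5 genes. The longest run of bases common to all 5 windows had 12 bases and is in capitals below, with the bases before it in lower case, 5′ to 3′ on the plus strand:
Klk1 (chr7:44225380-44225409): aggggtggggctgtggggGAGAATGAGGGT
Klk1b4 (chr7:44207355-44207384): caggggaggggctgtgggGAGAATGAGGGT
Klk1b5 (chr7:44216401-44216430): aggggaggggctgtgggaGAGAATGAGGGT
Klk1b8 (chr7:43950591-43950620): caggggaggggctgtgggGAGAATGAGGGT
Klk1b24 (chr7:44188175-44188204): caggggaggggctgtgggGAGAATGAGGGT

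The printed stretches of Klk1b4, Klk1b8 and Klk1b24 have the same letters throughout. Positions here count from the RefSeq start. In the Klk1b genes the shared run lies before that start, with its first base at -60 in Klk1b4, -57 in Klk1b8, -55 in Klk1b5 and -43 in Klk1b24. For Klk1b5 the annotations conflict: the GENCODE gene given above begins at 44215945, upstream of the printed stretch, so that the run lies inside the GENCODE gene. In Klk1 the run lies behind the start, at bases 39 to 50. Base 50 is the last base of the Klk1 window, so the length of the run was limited by the window edge. In the Klk1b genes the run is followed by tttaaa or ttttaa. Bases beyond the edge were not compared in Klk1, so a longer shared run was not tested. Searched on both strands, GAGAATGAGGGT was held by 10 of 32851 promoter windows (0.0304%), of which 9 belonged to the 14 Klk1 and Klk1b windows and the other to Gm32627. Klk1b3, Klk1b16, Klk1b11 and Klk1b27 were not among the 9. Of their EL1 UMIs, 98.0%, 97.4%, 85.7% and 85.4% also lay in cells with at least 100 UMIs of the 5 genes. The run was found by comparing these sequences, so it is a description of these windows and names no factor that binds there.

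Klk1 was by far the most abundant of the 5 genes in both libraries. It was counted at 49350 UMIs (1300.0 CPM, interval 1289 to 1312) in EL1 and 19936 UMIs (604 CPM, 596 to 612) in WTg. On the log2 scale WTg minus EL1 was -1.11 (-1.13 to -1.08), a 2.15-fold lower level in WTg. The highest cell had 2465 Klk1 UMIs in EL1 and 859 in WTg. Yet more cells held a Klk1 UMI in WTg, 373 of 905 against 343 of 1113 in EL1, so that the larger sum in EL1 came from fewer cells.

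The 4 Klk1b genes followed at far lower levels, and they differed more between the libraries than Klk1 did. Klk1b5 was counted at 1649 UMIs (43.4 CPM) in EL1 and 427 UMIs (12.9 CPM) in WTg, a log2 difference of -1.75 (-1.90 to -1.59). Klk1b4 had 1024 UMIs (27.0 CPM) in EL1 and 292 UMIs (8.85 CPM) in WTg, a log2 difference of -1.61 (-1.80 to -1.42). Klk1b8 had 735 UMIs (19.4 CPM) against 24 UMIs (0.727 CPM), the widest gap of the 5 genes at -4.73 (-5.39 to -4.15). Klk1b24 had 369 UMIs (9.72 CPM) against 35 UMIs (1.06 CPM), at -3.20 (-3.74 to -2.69). All 5 genes were thus at least 2-fold lower in WTg by CPM, although Klk1 fell short of 2-fold under a stricter cell filter (-0.91) and TMM scaling (-0.99), and Klk1b4 without 2 EL1 cells (-0.94). By the same CPM, 6.9% of the 16167 genes with at least 10 UMIs were at least 2-fold lower in WTg and 10.1% at least 2-fold higher. The median log2 ratio of all these genes was -0.14. Since the rule that chose the genes used these libraries, nothing is read from that count.

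Most kallikrein UMIs of each library lay in 1 cluster, described below as cluster 11 in EL1 and cluster 0 in WTg. With both clusters left out, WTg stood above EL1 on the log2 scale by 1.49 for Klk1, 1.39 for Klk1b4, 1.26 for Klk1b5 and 0.81 for Klk1b24, while the log2 ratio of Klk1b8 was -0.89. The summed level of the remaining cells was 85.8 CPM (EL1) and 238 CPM (WTg), and 1 cell held 1477 of the 2976 EL1 UMIs left. For Klk1b24 that cell held 10 of 14 UMIs, and Klk1b8 had 13 UMIs in EL1 and 4 in WTg there. Immune-like cells, the background used below, stood at 65.2 CPM (46.3 to 89.1) in EL1, with 23 of 39 UMIs in 1 cell. In WTg they stood at 3.60 CPM (0.98 to 9.22). The summed EL1 level of the remaining cells thus overlapped its background and is not read as expression. Clusters 11 and 0 were picked for holding most of the UMIs, so the turn in direction is a description of where the UMIs lay. Within these data, fewer cells of a type and less RNA per cell both lower a library's sum, so the values per cell and per cluster follow.

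**Figure D1:**
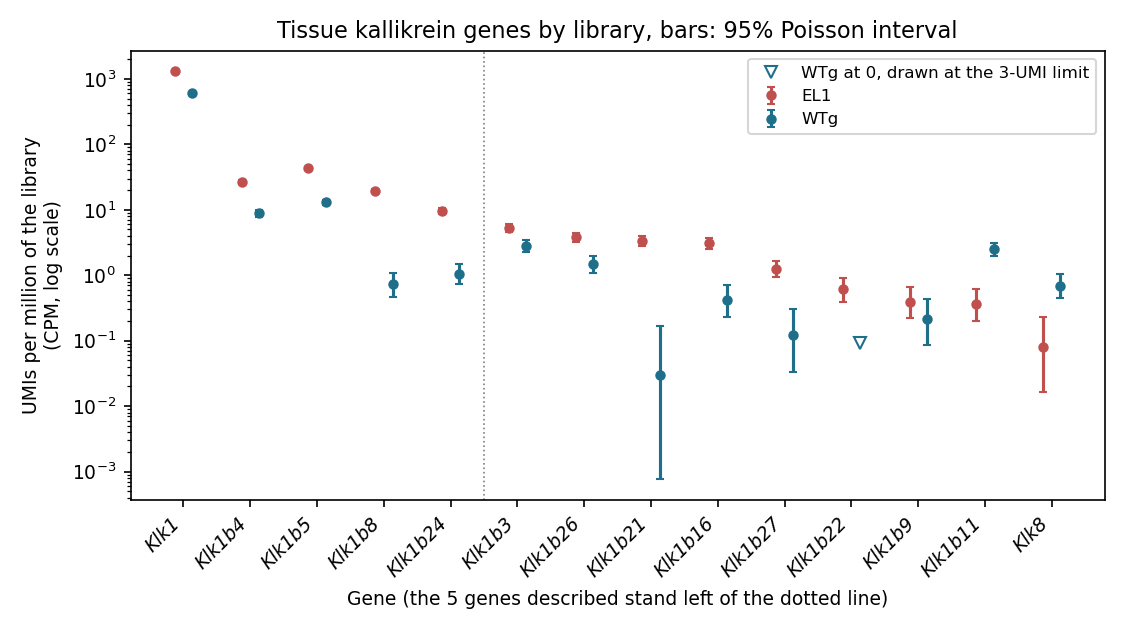
Level of each tissue kallikrein gene with at least 10 UMIs in all, in CPM on a log scale, with 95% Poisson intervals (counting error only) for the EL1 (red) and WTg (blue) libraries. The 5 genes described stand left of the dotted line and all are lower in WTg, whereas Klk1b11 and Klk8 at the right are higher in WTg, and Klk1b22 had no UMI in WTg.

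Per cell, the libraries had different shapes. In EL1, 352 of 1113 cells held at least 1 UMI of the 5 genes, but the median over those cells was 1 UMI. In WTg, 381 of 905 cells did, with a median of 7 UMIs. Kallikrein UMIs in EL1 were concentrated in few cells: 17 cells held at least 1000 UMIs of the 5 genes each and together 51.7% of all, while no WTg cell reached 1000. A cell is called kallikrein-high below when it held at least 100 UMIs of the 5 genes. There were 69 such cells in EL1 (6.20% of cells), with 97.6% of the library's UMIs of the 5 genes, and 66 in WTg (7.29% of cells), with 76.0%. At this cut, which is not scaled for depth, the numbers of kallikrein-high cells were alike. They were not alike at equal depth: thinned to 2000 UMIs per cell, 65 of 1051 EL1 and 27 of 836 WTg cells held at least 10 such UMIs. The kallikrein-high cells differed in how much they held, and the libraries in how much lay outside them. From 30 to 99 UMIs there were 13 EL1 and 65 WTg cells, and from 10 to 29 UMIs there were 8 and 47.

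**Figure D2:**
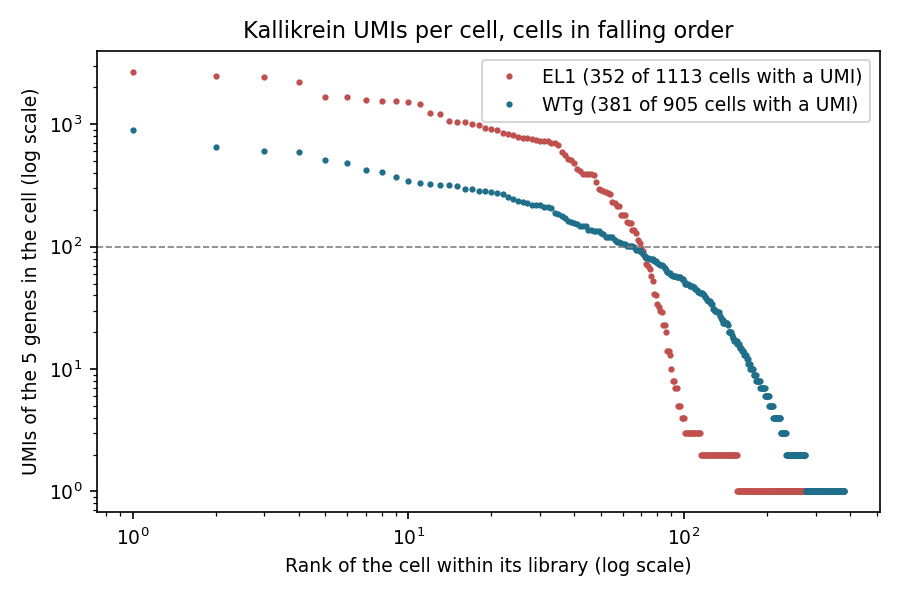
Summed UMIs of the 5 genes per cell, cells in falling order within each library, both axes on a log scale; the dashed line marks 100 UMIs. The EL1 cells (red) start at 2688 UMIs and drop steeply past the dashed line, and the WTg cells (blue) start at 896 UMIs and fall slowly.

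The highest EL1 cell held 2688 UMIs of the 5 genes, 1.29% of its RNA, and the largest share in any EL1 cell was 5.02% (1053 UMIs). The corresponding values in WTg were 896 UMIs (1.08%) and 2.01% (656 UMIs). Kallikrein-high cells were deeper than the rest in both libraries, with median totals of 37428 against 25774.5 UMIs in EL1 and 46709.5 against 32989 in WTg. Their median mitochondrial share was 7.83% against 4.01% in EL1 and 3.48% against 3.85% in WTg. None of the EL1 and 1 of the WTg kallikrein-high cells was called a doublet. The part of depth and mitochondrial share in these results was not tested.

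Thinned to 2000 UMIs per cell to remove the depth difference, which left out 62 EL1 and 69 WTg cells, Klk1 was seen in 10.5% of EL1 cells (8.68% to 12.5%, exact binomial) and in 21.9% of WTg cells (19.1% to 24.8%). Unthinned, the shares were 30.8% and 41.2%. Cells of macrophage-, neutrophil-, T or NK- and B-like clusters served as background. There the thinned share was 6.52% in EL1 (3 of 46 cells, 1.37% to 17.9%) and 1.67% in WTg (1 of 60 cells, 0.0422% to 8.94%), where the cells' median depth before thinning was 7484 and 9168 UMIs, below the 28320 and 36521 of all cells thinned. In EL1 the share of cells with a Klk1 UMI therefore overlapped its background, and it is not read as expression. With at least 10 UMIs of the 5 genes after thinning, 65 of 1051 EL1 cells (6.18%) and 27 of 836 WTg cells (3.23%) remained, and no immune-like cell of either library did (0 of 46, which allows up to 7.71%, and 0 of 60, up to 5.96%).

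The Klk1b genes were found almost wholly in cells that also had Klk1. Of 102 EL1 cells with a UMI of at least 1 of the 4 Klk1b genes, 93 (91.2%) had Klk1, and of 183 such WTg cells 175 (95.6%) did. Thinned to 2000 UMIs, the shares were 97.0% in EL1 (64 of 66 cells, 89.5% to 99.6%) and 85.2% in WTg (23 of 27 cells, 66.3% to 95.8%), so the order of the libraries turned, with intervals that overlapped. By gene and without thinning, the share of positive cells that also held Klk1 was 95% for Klk1b4, 96.3% for Klk1b5, 97.0% for Klk1b8 and 100% for Klk1b24 in EL1. In WTg the shares were 98.2%, 96.0%, 100% and 95.7%. In the other direction, 250 EL1 and 198 WTg cells had Klk1 and no Klk1b gene. Only 1 or 2 UMIs of the 5 genes were held by 238 EL1 and 147 WTg cells, too few to show that a Klk1b gene was absent. Among cells with at least 30 such UMIs, Klk1 alone was seen in 1 of 82 EL1 and 12 of 131 WTg cells.

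All 5 genes were counted together in 49 EL1 cells and in 4 WTg cells. Among kallikrein-high cells this was 47 of 69 in EL1 and 4 of 66 in WTg. The WTg kallikrein-high cells held 4 of the genes in 20 cells, 3 in 30, 2 in 10 and 1 in 2. Over the 1113 EL1 cells, Pearson's r of log-scaled counts between Klk1 and Klk1b5 was 0.84, between Klk1 and Klk1b4 0.77, between Klk1 and Klk1b8 0.74 and between Klk1 and Klk1b24 0.70. Over the 905 WTg cells the same values were 0.65, 0.62, 0.30 and 0.34, with Klk1b8 and Klk1b24 seen in only 16 and 23 cells. The cells of a library share its depth and its cell types, and most of them held none of these genes, so these values describe a split into cells with and without kallikreins.

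**Figure D3:**
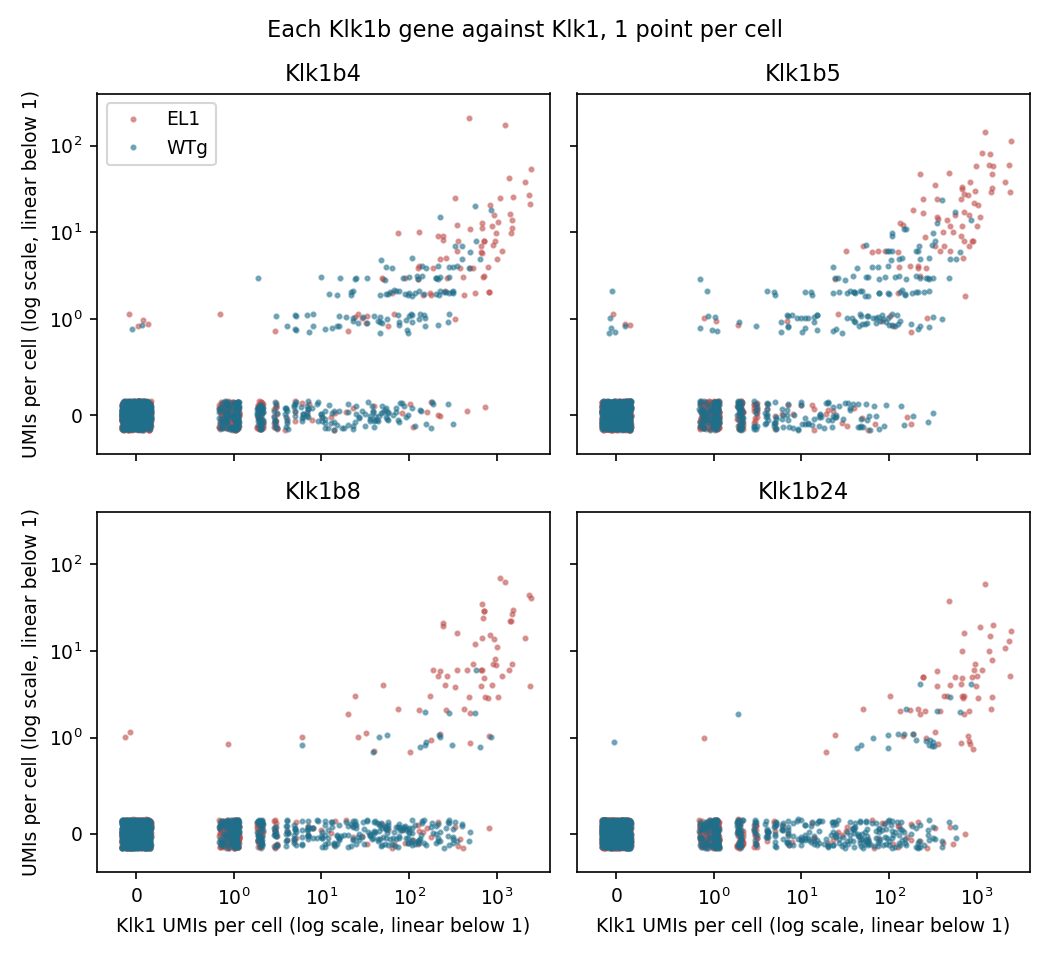
UMIs of Klk1b4, Klk1b5, Klk1b8 and Klk1b24 (vertical) against Klk1 (horizontal) in each cell, on log scales that are linear below 1, with a small random shift to separate points. EL1 (red) and WTg (blue) cells overlap for Klk1b4 and Klk1b5, apart from 2 EL1 cells with 174 and 207 Klk1b4 UMIs, whereas most WTg cells with 100 or more Klk1 UMIs have no Klk1b8 or Klk1b24.

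The make-up of the kallikrein UMIs differed between libraries beyond the level of Klk1. Klk1 made up 92.9% of the UMIs of the 5 genes in EL1 (92.7% to 93.1%) and 96.2% in WTg (96.0% to 96.5%). Per 100 Klk1 UMIs, Klk1b8 was counted 1.49 times in EL1 and 0.120 times in WTg, a 12.4-fold difference. Klk1b24 stood at 0.748 against 0.176 per 100 Klk1 UMIs, 4.26-fold. Klk1b5 (3.34 against 2.14) and Klk1b4 (2.07 against 1.46) differed by 1.56-fold and 1.42-fold.

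The Klk1b4 difference hung on a pair of cells. Their 207 and 174 UMIs made up 381 of the 1024 Klk1b4 UMIs in EL1, and in the first of them Klk1b4 was 26.7% of the UMIs of the 5 genes. Without the pair EL1 had 1.35 Klk1b4 UMIs per 100 of Klk1, below the WTg value, and the log2 ratio of its CPM was -0.94 in place of -1.61. Without the top 2 cells of each gene, Klk1b8 stood at 1.28 against 0.0833 and Klk1b24 at 0.571 against 0.143 per 100 Klk1 UMIs, so their order was kept.

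Cells of like kallikrein content gave the same picture for Klk1b8. Among cells with at least 300 and under 1000 UMIs of the 5 genes, Klk1b8 had 258 of 20153 UMIs (1.28%) in 31 EL1 cells and 11 of 6908 UMIs (0.159%) in 15 WTg cells. Among cells with at least 100 and under 300 UMIs it had 76 of 4233 (1.80%) in 21 EL1 cells and 9 of 8837 (0.102%) in 51 WTg cells. Within kallikrein-high cells the share of Klk1b8 had a median of 0.793% and a range of 0% to 7.17% in EL1, and 13 of 69 cells held none. In WTg the median was 0%, the highest share was 1.29% and 54 of 66 cells held none. The ranges thus overlapped while the medians stood apart. For Klk1b24, 15 of 69 EL1 and 48 of 66 WTg kallikrein-high cells held none.

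Cells of both libraries were clustered together with all Klk genes, Mettl3 and Plk1 left out. Of the EL1 UMIs of the 5 genes, 94.4% lay in cluster 11, which had 76 EL1 cells and no WTg cell. Its 76 cells were 6.83% of the EL1 library, and 63 of the 69 EL1 kallikrein-high cells were in it. They held a median of 496 UMIs of the 5 genes, with quartiles at 182.75 and 903.75 and a range from 0 to 2688. The level in the cluster was 15327 CPM (15193 to 15462), against 85.8 CPM (82.7 to 88.9) in the other 1037 EL1 cells.

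The leading genes of cluster 11 were Atp4b, Atp4a and Ldhb, followed by Kng2 and Esrrg. Atp4a and Atp4b encode the proton pump of gastric parietal cells, and Ldhb encodes a lactate dehydrogenase subunit. The cluster is left unnamed because only 2 markers of the gastric list met the naming rule, which asks for 3. In the 69 EL1 kallikrein-high cells, the 7 measured gastric markers summed to 1117 CPM (0 to 9706 in single cells) against 11.8 CPM (0 to 3578) in the rest, yet Cblif, Pgc, Tff1 and Gkn1 were at 0 there. The acinar list was present in the same cells, at 48043 CPM against 75179 CPM in the rest. The salivary duct list summed to 2.68 CPM (0 to 42.3 in single cells) in the EL1 kallikrein-high cells against 19.6 CPM in the rest, and to 12.0 CPM (0 to 76.1) against 9.45 CPM in WTg. Of its 7 markers, 5 were at 0 in the kallikrein-high cells of both libraries (Smgc, Bpifa2, Ren1, Dcpp1 and Dcpp3). Because this cluster had no WTg cell and there was 1 library per group, it may be particular to that library.

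In WTg, 77.2% of the UMIs of the 5 genes lay in cluster 0, led by Gm5771 and Prss1, both of the trypsinogen family, and by Sycn, a zymogen granule protein. It held 274 WTg and 6 EL1 cells and stays unnamed too, as only 1 marker of the acinar list met the naming rule. The WTg cells of cluster 0 were mixed: 93 held no UMI of the 5 genes, 130 held 1 to 99 and 51 held at least 100, with a median of 3 and a highest value of 896. Their level was 1209 CPM (1190 to 1228), against 238 CPM (232 to 245) in the other 631 WTg cells. The 6 EL1 cells of cluster 0 held 0 to 180 UMIs with a median of 57, 3 of them at least 100, and their level was 1499 CPM (1360 to 1649), above the WTg cells beside them, with 42.5% of their UMIs in 1 cell. Of their 424 UMIs, 417 were Klk1, 4 Klk1b5, 3 Klk1b4 and none Klk1b8 or Klk1b24.

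Smaller shares of the WTg UMIs lay in cluster 9 (10.6%, 87 cells, led by Hist1h2ap, Ube2c and Hist1h2ae), in the neuroendocrine-like cluster 2 (5.49%, 178 cells, led by Serpina1c, Serpina1b and Serpina1a) and in cluster 13 (3.99%, 31 cells, led by Fos, Klf2 and Socs3). In EL1 the neuroendocrine-like cluster 1, led by Resp18, Egr4 and Tff3, came after cluster 11 with 3.27%, but 85.0% of that was 1 cell with 1477 UMIs. Without that cell the EL1 level outside cluster 11 was 43.3 CPM. Klk1b8 made up 1.44% of the UMIs of the 5 genes in cluster 11 and 0.125% in the WTg cells of cluster 0. In the EL1 cells outside cluster 11 it stood at 0.464 per 100 Klk1 UMIs, on 13 UMIs, between the 1.55 of cluster 11 and the 0.129 of WTg cluster 0.

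**Figure D4:**
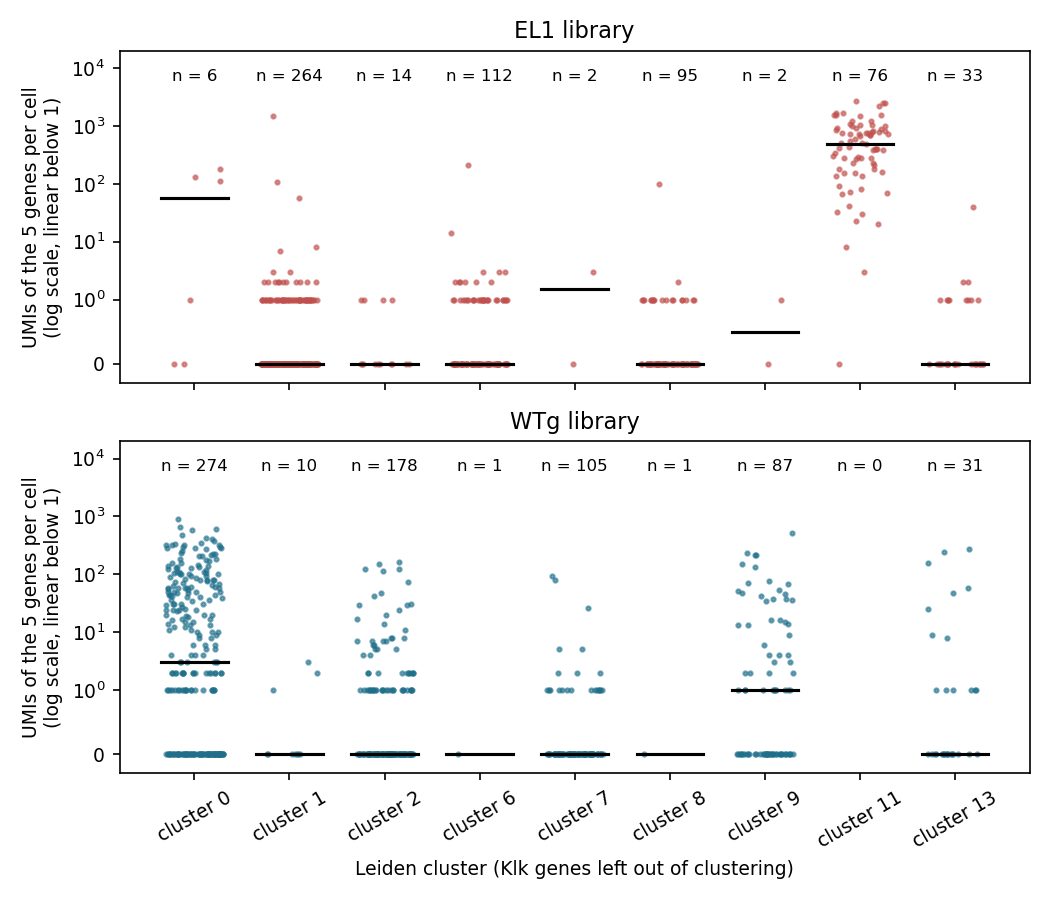
UMIs of the 5 genes in each cell of the clusters that held most of them, on a log scale that is linear below 1, with the EL1 library above and the WTg library below; black lines are medians and n is the number of cells. Cluster 11 has 76 EL1 cells with a median of 496 and no WTg cell, and cluster 0 has 274 WTg cells spread from 0 to 896.

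The genes whose counts followed the 5 kallikreins most closely over cells differed between libraries. Likeness was measured as Pearson's r of log-scaled counts with the summed kallikreins, over 1113 EL1 or 905 WTg cells. In EL1 the 5 most alike were Ldhb (0.78), Kng2 (0.76), Atp4b (0.75), Tnni3 (0.69) and Tdrd9 (0.65). In WTg they were Prss1 (0.45), Try10 (0.42), Gm5771 (0.41), Pnliprp2 (0.40) and Sycn (0.39), genes of trypsinogens, of a lipase-related protein and of zymogen granules. None of the 10 most alike genes of one library was among the 10 of the other. Ldhb had r = -0.07 in WTg, and Prss1 had r = 0.11 in EL1. By the lower of both values, genes among the leaders were Dmbt1 (0.26), Chchd10 (0.24), Pnliprp2 (0.20) and Ctrb1 (0.20).

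Over the 76 cells of cluster 11 alone, r was lower for each of the 5 EL1 leaders, at 0.42 with Kng2, 0.24 with Ldhb, 0.18 with Tdrd9, 0.17 with Atp4b and 0.07 with Tnni3. Atp4b had 2465 of its 2509 EL1 UMIs in the cluster and no UMI in WTg, where the 66 kallikrein-high cells thus all lacked it.

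Of the kallikrein pathway, the substrate gene Kng2 had the highest r with the kallikreins in EL1 among the genes with at least 20 positive cells. Kng2, which encodes a kininogen, had 715 UMIs in EL1 (18.8 CPM), of which 640 (89.5%) were in cluster 11, and 61 of the 69 EL1 kallikrein-high cells held it. In WTg it had 177 UMIs (5.36 CPM), and 9 of the 66 kallikrein-high cells held it, with 3.32 CPM there against 5.64 CPM in the rest. Substrate and protease were thus counted in the same cells in EL1. In WTg only 64 of the 905 cells held Kng2 at all, most of them not kallikrein-high. The share of kallikrein-high WTg cells with Kng2 was not below that of all WTg cells, although the CPM was lower. Kng2 was among the genes that set cluster 11 apart, so the overlap in EL1 too is a description. Kng1, the other kininogen gene, had 1 UMI in EL1 and 19 in WTg.

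**Figure D5:**
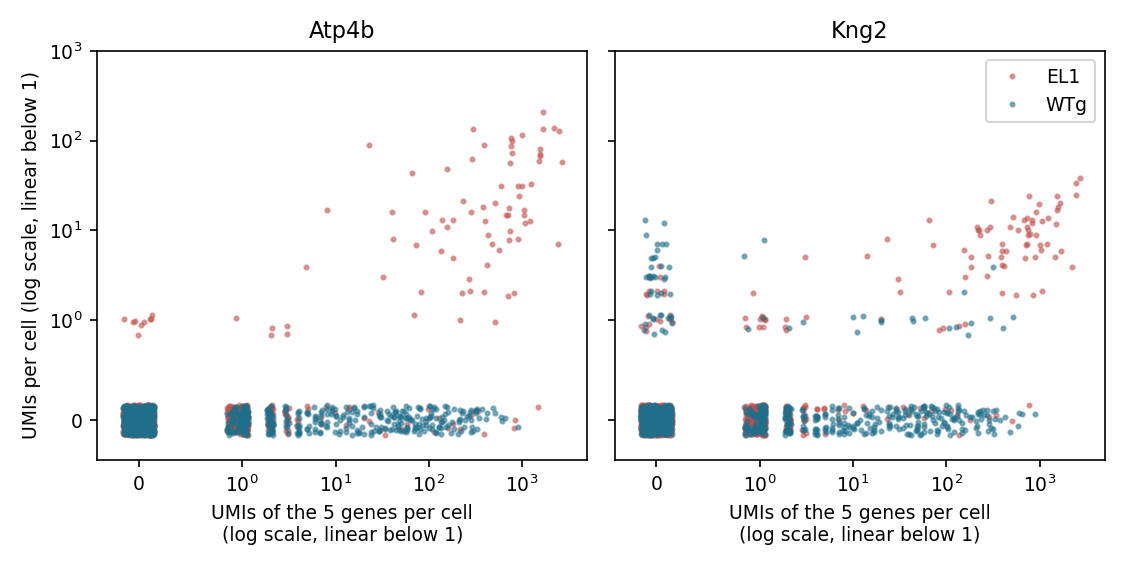
UMIs of Atp4b (left) and Kng2 (right) against the summed UMIs of the 5 genes in each cell, on log scales that are linear below 1, with a small random shift. In EL1 (red) both genes are found in cells with many kallikrein UMIs, whereas in WTg (blue) Atp4b is at 0 throughout. Kng2 in WTg lies mostly in cells without kallikreins, which were 524 of the 905 cells.

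The bradykinin receptor genes had few counts, Bdkrb1 8 UMIs in EL1 and 2 in WTg, Bdkrb2 none in EL1 and 25 in WTg in 5 cells, and neither had a UMI in a kallikrein-high cell. Among kinin-degrading peptidases the carboxypeptidase gene Cpn1 stood at 97.2 CPM (EL1) and 60.3 CPM (WTg), and Cpm at 16.7 and 13.8 CPM. Cpm, which encodes a membrane carboxypeptidase, also stood with the kallikreins in EL1, with r = 0.30, 59.6 CPM in kallikrein-high cells against 12.5 CPM in the rest, and a UMI in 53 of the 69. In WTg the level in kallikrein-high cells was 19.2 CPM, against 13.8 CPM over all cells. Ece1 (34.6 and 33.7 CPM) and Ace (3.53 and 4.27 CPM) differed by less than 2-fold as well. Spink1, a trypsin inhibitor gene of acinar cells, had 3686 and 3782 CPM over all cells, but 878 CPM in the EL1 kallikrein-high cells against 3958 CPM in the rest.

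Of the growth factor genes tied to submandibular kallikreins, Egf (6.69 and 5.57 CPM) and its receptor gene Egfr (8.32 and 9.57 CPM) differed by less than 2-fold. Agt, the angiotensinogen gene, had 1.66 and 1.12 CPM, and Ren1 had no UMI. Plasma kallikrein, Klkb1, whose gene lies outside this cluster, was counted 5 times in EL1 and 18 times in WTg. Of the 17 measured genes of these lists, the growth factor list left out, 11 had at least 10 UMIs, of which 2 were at least 2-fold lower in WTg (Kng2 and Bdkrb1) and 3 at least 2-fold higher (Kng1, Bdkrb2 and Klkb1), beside 6.9% and 10.1% of all genes. The interval of Bdkrb1, on 8 and 2 UMIs, was -5.07 to 0.53 and included 0. The 11 genes had a median log2 ratio of -0.04 beside -0.14 over all genes.

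The other tissue kallikreins divided by their place in the family. Of 21 such genes, 9 had no UMI in either library, all of them outside the Klk1b group (Klk4, Klk5, Klk7 and Klk9 to Klk14), and Klk6, Klk15 and Klk1b1 had fewer than 10 in all. Of the 9 others, 7 were lower in WTg, although the interval of Klk1b9 (-2.43 to 0.48) included 0. Of all genes with at least 10 UMIs, 61.8% were lower in WTg by any amount and 6.9% at least 2-fold lower. At least 2-fold lower among the 9 were 5, and 2 were at least 2-fold higher. Klk1b3 had 202 UMIs in EL1 and 93 in WTg, a log2 difference of -0.92 (-1.29 to -0.56). Klk1b26, an EGF-binding kallikrein, had 144 and 49 UMIs, at -1.35 (-1.85 to -0.88). Klk1b16 had 117 and 14 UMIs, at -2.86 (-3.78 to -2.06).

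Klk1b21, whose transcript end shares the windows with Klk1b24, had 126 UMIs in 41 EL1 cells and 1 UMI in WTg. Klk1b27 had 48 and 4 UMIs, and Klk1b9 had 15 and 7. Klk1b22 had 23 UMIs in EL1 and none in WTg, which makes it 6.67-fold lower there when WTg is set at 3 UMIs. The interval of its log2 ratio has its upper end at -2.32. Per 100 Klk1 UMIs, Klk1b3 stood at 0.409 in EL1 and 0.466 in WTg and Klk1b26 at 0.292 and 0.246, so these genes kept near the same ratio to Klk1, whereas Klk1b21 (0.255 and 0.00502) and Klk1b16 (0.237 and 0.0702) did not.

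Klk1b11 went the other way. In EL1 14 UMIs were spread over 7 cells and in WTg 83 UMIs over 36 cells, a log2 difference of 2.77 (1.94 to 3.70), and 0.0284 against 0.416 UMIs per 100 of Klk1. Of its WTg UMIs, 66 (79.5%) were in kallikrein-high cells, so it was found where Klk1 was. Klk8, a kallikrein known from brain and skin, also had more UMIs in WTg, 23 against 3, but none in a kallikrein-high cell of either library. In order of UMIs, the EL1 kallikrein-high cells held Klk1, Klk1b5, Klk1b4, Klk1b8 (717 UMIs), Klk1b24 (364) and Klk1b3 (198). The WTg kallikrein-high cells held Klk1, Klk1b5, Klk1b4, Klk1b3 (70 UMIs), Klk1b11 (66) and Klk1b26 (43), with Klk1b24 (29) and Klk1b8 (20) behind.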

How the data were processed

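Tumours were profiled with a 10x 3′ v3.1 kit, 1 library per group. The authors deposited UMI counts per gene and barcode, made with Cell Ranger 6.0.2 per the file headers, on GRCm38 per the submitters' processing notes. Those notes also name R 4.1 and Seurat 4.0.5. The counting of intronic, antisense and multi-mapped reads is not given in the sources used here.

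Kept barcodes had 500 or more genes, 1000 or more UMIs and a mitochondrial share of up to 20%, 37961287 UMIs in EL1 and 33007683 in WTg. UMIs were summed per library, scaled to CPM and given with exact Poisson intervals. Ratios have exact conditional binomial intervals and shares have Clopper-Pearson intervals. With 1 library per group no test was possible. The limit for a count of 0 was 3 UMIs per library, 0.0790 CPM (EL1) and 0.0909 CPM (WTg). The formulas were tested on simulated counts.

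Clusters were made with scanpy 1.11.5 (10000 per cell, 2000 variable genes, 30 components, 15 neighbours, Leiden resolution 1). A cluster was named "X-like" when at least 3 markers of a list were 2-fold or more higher in it and detected in a set share of its cells. That list also had to have more such markers than any other list, and the most markers among the cluster's leading genes, at least 1. Scrublet called 2 EL1 and 3 WTg doublets, which were kept. TMM factors came from edgeR 4.0.16.

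Genes named were the 5 genes, other Klk genes and pathway genes with 10 or more UMIs in all, the 5 most alike per likeness rule (genes with a UMI in at least 20 cells) and leading cluster genes. Some genes that these rules name are not reported here. Genes and lists were chosen with earlier results of these data known.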

Additional observations from a re-analysis of the deposited data

Results flagged for a closer look

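Kallikrein UMIs were also found in the removed barcodes, which enter no comparison. The 583 removed WTg barcodes held 426 UMIs of the 5 genes, a level of 229 CPM (207 to 251), above the 184 CPM (161 to 210) of the 508 removed EL1 barcodes with 223 UMIs. On the log2 scale WTg exceeded EL1 by 0.31 (0.07 to 0.55), the opposite direction to the kept cells. Klk1 made up 414 of the WTg and 206 of the EL1 UMIs, and Klk1b8 had none in WTg and 6 in EL1. More than 20% of the UMIs were mitochondrial in 440 of the WTg and 393 of the EL1 barcodes, and the part of this in the result was not tested.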

How the results depend on the processing

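Of 80 values under other settings, 40 stayed within the counting interval or within 1.5 times for counts, 29 moved and 11 reversed. Of the 11, 6 were the log2 ratios of WTg over EL1 without the EL1 cells of cluster 11, an alternative chosen after seeing the data and for the cells with most UMIs: 2.90 for Klk1, 2.33 for Klk1b4, 2.35 for Klk1b5, 0.96 for Klk1b8, 1.39 for Klk1b24 and 2.87 for the summed genes. The other 5 came without cluster 11 in EL1 and cluster 0 in WTg (also chosen after seeing the data): 1.49 for Klk1, 1.39 for Klk1b4, 1.26 for Klk1b5, 0.81 for Klk1b24 and 1.48 for the summed genes, while Klk1b8 moved to -0.89. All other settings kept the direction of these ratios, but Klk1 under the stricter filter and TMM and Klk1b4 without the pair named next were less than 2-fold lower. Klk1 stood at -1.11 and moved to -0.91 under the stricter cell filter (1000 genes, 2000 UMIs, 10% mitochondrial), -1.14 without doublets, -0.99 under TMM, -1.03 with cells weighted equally and -1.06 without the pair of EL1 cells richest in Klk1b4 (also chosen after seeing the data). The summed genes stood at -1.16 and moved to -0.96, -1.19, -1.04, -1.07 and -1.09 in the same order. Klk1b4 moved to -1.30 with cells weighted equally and to -0.94 without the pair, and Klk1b5 to -1.56 under the stricter filter and -1.57 without the pair.

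Shares of cells with a UMI follow depth by construction. For Klk1 they were 30.8% in EL1 and 41.2% in WTg without thinning and 17.6% in WTg at 1000 UMIs. For any of the 4 Klk1b genes they were 6.28% in EL1 and 3.23% in WTg at 2000 UMIs, 9.16% and 20.2% without thinning, and 3.68% and 1.44% at 1000 UMIs, so the order of the libraries turned without thinning. The Klk1 share of WTg UMIs of the 5 genes was 95.3% as a mean over cells. The leading cluster's share fell to 51.8% in EL1 and 41.4% in WTg at resolution 2, where clusters are smaller, and was 97.3% and 59.4% with Klk genes kept. Of the 10 most alike genes, 6 in EL1 and 8 in WTg were shared with Spearman's rho. Genes past a 2-fold difference numbered 2752, and 1541 with at least 50 UMIs.

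No paired analysis was possible because there was 1 library per group. For the same reason no spread between animals is known, and an interval that excludes 0 compares these libraries, not the genotypes. Strain, transgene, animals and library cannot be told apart.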
